A study of Mus musculus with 18 samples.

Results

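The DNA replication machinery is described here through 40 mouse genes, chosen by name from the 45706 genes of the count table. They are the 6 subunits of the origin recognition complex, 3 licensing factors, the 6 MCM helicase subunits, 6 genes of helicase activation, 8 polymerase and primase subunits, the sliding clamp with its 5 loader subunits, 2 enzymes of lagging strand maturation and the 3 subunits of the single-strand binding protein RPA. All 40 symbols were found once in the table, and all 40 passed the filter on low counts that left 16619 genes for testing. The count table came from RNA-seq of mouse induced pluripotent stem cells (iPSCs), either Hmga2 wild type (wt) or from 1 of 2 Hmga2 knockout clones (KO#1 and KO#2). Undifferentiated cells (0 h) were kept with LIF and 2 kinase inhibitors on inactivated fibroblast feeders. They were compared with cells induced for 24 h towards epiblast-like cells (EpiLCs), plated on a basement membrane matrix with Activin A and bFGF. Each of the 6 groups held 3 biological replicates, giving 18 libraries. Since each line in this experiment was 1 clone, a difference between a clone and wt cells cannot be told apart from a difference between single clones.

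Replication starts when the origin recognition complex binds chromatin and, with CDC6 and CDT1, loads the ring of MCM2 to MCM7, a step that geminin blocks outside G1. CDC45 and the GINS complex then turn the loaded ring into the moving helicase. Polymerase alpha and primase lay down primers, and polymerases epsilon and delta extend them on the PCNA clamp that replication factor C opens and closes. Pluripotent cells divide rapidly, and the length of G1 was not measured here. Many genes of this machinery are known targets of the E2F factors, with NF-Y sites also common in promoters of cell cycle genes.

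The libraries held 3466436 to 23872837 counts, and the lowest count of any member in any library was 15 (Orc4), so all were measured above the floor of 3 counts, which lay between 0.116 and 0.984 CPM. CPM is a count scaled to the library size with a TMM factor, and values are on this scale unless another is named. The share of counts from protein-coding genes averaged 61.3% in wt and 69% in KO#1 libraries at 0 h, 54.4% and 51.6% at 24 h, and 78% and 83.2% in the libraries labelled KO#2 at 0 and 24 h. Rn7s1 or Gm26917 was the most abundant gene in all but 3 libraries labelled KO#2, where it was Rn7s2. Hmga2 itself was at 17.4, 13.3 and 22.4 CPM in wt cells at 0 h, 10.2, 4.59 and 1.75 in KO#1, and 4.1, 1.84 and 8.25 in KO#2. The fitted difference from wt at 0 h was -1.71 ± 0.63 in KO#1 (edgeR adjusted p = 0.124) and -1.90 ± 0.62 in KO#2 (adjusted p = 0.023). At 24 h Hmga2 was at 5.87, 5.51 and 5.93 CPM in wt cells and 3.67, 2.25 and 0.871 in KO#1. The libraries labelled KO#2 had 10.5, 3.02 and 3.48, which overlapped wt (log2 fold change -0.04 ± 0.60 SE, edgeR adjusted p = 0.966). Gene-level counts can include RNA from outside an edited stretch, whose position in these clones is not given in the sources used here, so the level does not check the labels by itself. The fibroblast markers Col1a1, Col1a2, Col3a1 and Thy1 were detected in every library. The 8 fibroblast genes summed to 110 to 390 CPM in wt, 183 to 514 in KO#1 and 331 to 898 in KO#2 at 0 h. At 24 h they summed to 19 to 34.6, 38.7 to 51.8 and 71 to 219. One of these 8 genes, Dcn, was at 0 in all wt libraries at 0 h. The naive markers summed to 2500 to 4300 CPM over the 9 libraries at 0 h and 300 to 719 at 24 h.

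Promoters are shown for 4 members that rose in all 3 lines (below), because E2F and NF-Y words are the sequence features this gene family is known for. RefSeq windows on GRCm38.p6, running from 250 bases before to 50 after the annotated start, were matched by symbol for 32 of the 40 members, with 40 windows in all since 6 genes had several. In each the E2F words TTTCGCGC, TTTGGCGC, TTTCCCGC and TTTGCCGC and the NF-Y word CCAAT were searched on both strands, and matches are in capitals. The Cdc6 window lies at chr11:98907901-98908200 on the plus strand, that of Mcm5 at chr8:75109259-75109558 on the plus strand, that of Mcm7 at chr5:138171834-138172133 on the minus strand and that of Pcna at chr2:132253131-132253430 on the minus strand, each written 5′ to 3′ on the gene's strand.
Cdc6: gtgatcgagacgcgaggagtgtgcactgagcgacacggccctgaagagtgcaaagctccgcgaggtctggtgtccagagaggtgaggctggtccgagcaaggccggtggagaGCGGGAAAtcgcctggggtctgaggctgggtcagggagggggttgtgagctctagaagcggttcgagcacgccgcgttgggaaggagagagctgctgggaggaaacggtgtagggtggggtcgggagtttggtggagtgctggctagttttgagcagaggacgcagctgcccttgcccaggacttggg
Mcm5: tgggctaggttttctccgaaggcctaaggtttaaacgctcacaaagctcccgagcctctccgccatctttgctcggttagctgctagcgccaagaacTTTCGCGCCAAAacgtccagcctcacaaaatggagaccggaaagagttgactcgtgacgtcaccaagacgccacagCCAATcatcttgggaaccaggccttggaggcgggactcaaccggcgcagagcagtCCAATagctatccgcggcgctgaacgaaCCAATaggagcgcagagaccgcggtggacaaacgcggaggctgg
Mcm7: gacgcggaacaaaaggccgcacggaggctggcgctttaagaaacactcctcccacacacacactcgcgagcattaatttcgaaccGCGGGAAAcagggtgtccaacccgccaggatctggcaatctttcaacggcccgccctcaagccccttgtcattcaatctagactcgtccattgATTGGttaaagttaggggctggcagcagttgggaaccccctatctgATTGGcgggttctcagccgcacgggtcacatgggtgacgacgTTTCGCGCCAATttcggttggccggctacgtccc
Pcna: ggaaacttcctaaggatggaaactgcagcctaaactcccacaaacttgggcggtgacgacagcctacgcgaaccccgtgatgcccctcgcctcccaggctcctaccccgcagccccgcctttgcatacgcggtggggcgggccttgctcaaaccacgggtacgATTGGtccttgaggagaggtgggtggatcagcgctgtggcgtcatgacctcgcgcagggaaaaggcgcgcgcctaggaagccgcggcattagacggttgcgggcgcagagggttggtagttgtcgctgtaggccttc
In Mcm5 the words TTTCGCGC and TTTGGCGC, the latter read as GCGCCAAA, overlap in 1 run that begins 153 bases before the start. The window also holds 3 CCAAT words, 1 of them after the start. In Mcm7 an E2F word lies 165 bases before the start and another 17 bases after it, where it runs into a CCAAT word. The second Mcm7 window holds CCAAT alone. Cdc6 carries 1 E2F word 138 bases before the start and no CCAAT, and Pcna the reverse, 1 CCAAT read as ATTGG and no E2F word. Over all members with a window, 14 of 32 (43.8%) had an E2F word and 21 of 32 (65.6%) a CCAAT word, against 2.6% and 41.1% of the 27025 genes with a window. Of the 32, 8 had both, against 1.12% of genes. Counted per window rather than per gene, 2.26% of 32851 windows held an E2F word and 37.4% a CCAAT word. Among members that rose in all 3 lines, 3 of 10 with a window had an E2F word. These were Cdc6, Mcm5 and Mcm7, all of them printed above, so the 4 windows shown are not typical of the 10. Among those called in no line 4 of 7 had one (Cdt1, Mcm3, Gins3 and Pold1). A match is a string of letters in a window and not a measured site, and no match says only that these letters are absent there.

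The first comparison asked how the machinery changed over 24 h of EpiLC induction in each line. In wt cells 28 of the 40 genes rose and none fell, where 26% of all tested genes were called higher and 24.7% lower (edgeR quasi-likelihood test, adjusted p under 0.05 over all 16619 genes). In KO#1 cells 23 rose and none fell (20.1% and 20.6% of all genes), and in the libraries labelled KO#2 14 rose and none fell (12.7% and 13.3%). The median log2 fold change over the 40 genes reached 0.98 in wt, 0.88 in KO#1 and 0.65 in KO#2, where that over all tested genes was 0.03, 0.00 and -0.03. No library is shared between these 3 comparisons, and 12 genes rose in all 3, where 7.61% of all tested genes did. They were Orc2, Cdc6, Mcm4, Mcm5, Mcm7, Mcm10, Pcna, Rfc2, Rfc5, Fen1, Rpa1 and Rpa2. Of the other 28, 10 rose in wt and KO#1 but were not called in KO#2, 6 were called in wt cells alone, Pola2 in KO#1 alone, Mcm2 and Lig1 in KO#2 alone, and 9 in no line.

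The size of the rise depended on how libraries were scaled. With library sizes alone, the median over all tested genes moved to -0.58 in wt and -0.78 in KO#1 cells, and the counts of members called fell to 5, 1 and 5 in wt, KO#1 and KO#2. On that scale 1587, 837 and 1271 of all 16619 genes were called higher. The members' median itself was then 0.34 in wt, 0.0148 in KO#1 and 0.61 in KO#2. Of the members called higher with TMM, Rfc2 in wt cells and Orc1, Mcm5, Mcm7, Cdc45 and Rfc2 in KO#1 then had negative values, as had members that were not called, such as Mcm2 in both. Relative to that shift the members' median was 0.93, 0.80 and 0.67 higher than that of all genes, against 0.95, 0.87 and 0.68 with TMM. The summed level of the 40 genes was 3649 ± 213 CPM (mean ± SD, n = 3) before and 6195 ± 364 after induction in wt, 3785 ± 531 and 6529 ± 330 in KO#1, and 2742 ± 422 and 4503 ± 917 in KO#2. As a percent of protein-coding counts, with no scaling factor, the 40 genes went from 0.586% to 0.653% over the wt libraries at 0 h to 0.711% to 0.824% at 24 h. In KO#1 the range went from 0.575% to 0.657% up to 0.748% to 0.91%, and in the libraries labelled KO#2 from 0.436% to 0.57% up to 0.662% to 0.854%. On this scale every library at 24 h was above every library at 0 h of all 3 lines. As a percent of all counts the wt libraries (0.318% to 0.422%, then 0.318% to 0.522%) and the KO#1 libraries (0.389% to 0.502%, then 0.344% to 0.574%) overlapped between times and those labelled KO#2 (0.332% to 0.451%, then 0.546% to 0.723%) did not. The counts also rested on single libraries. In wt cells 17 members were called without wt 0 h replicate 1, which had the fewest counts, and 18 without wt 0 h replicate 3. In KO#1 12 were called without KO#1 0 h replicate 1. In KO#2 there were 5 without KO#2 0 h replicate 1, 9 without KO#2 0 h replicate 2 and 5 without KO#2 24 h replicate 3. None of these fits called a member lower. The calls that held without each library in turn numbered 16 of 28 in wt, 12 of 23 in KO#1 and 5 of 14 in KO#2. Those that held under every other alternative but library sizes alone numbered 23, 16 and 8.

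**Figure D1:**
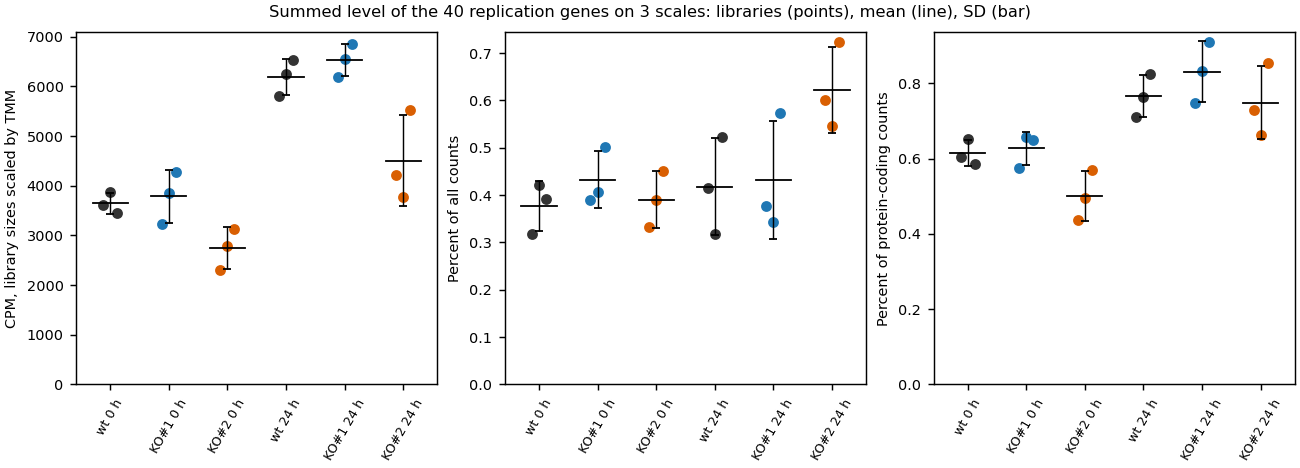
Summed level of the 40 replication genes per library on 3 scales, CPM after TMM scaling (left), percent of all counts (middle) and percent of protein-coding counts (right), with points for libraries, lines for means and bars for SD (n = 3). The times separate in every line on the left and right scales, and only in the libraries labelled KO#2 on the middle one, where KO#2 lies above wt at 24 h rather than below it.

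**Figure D2:**
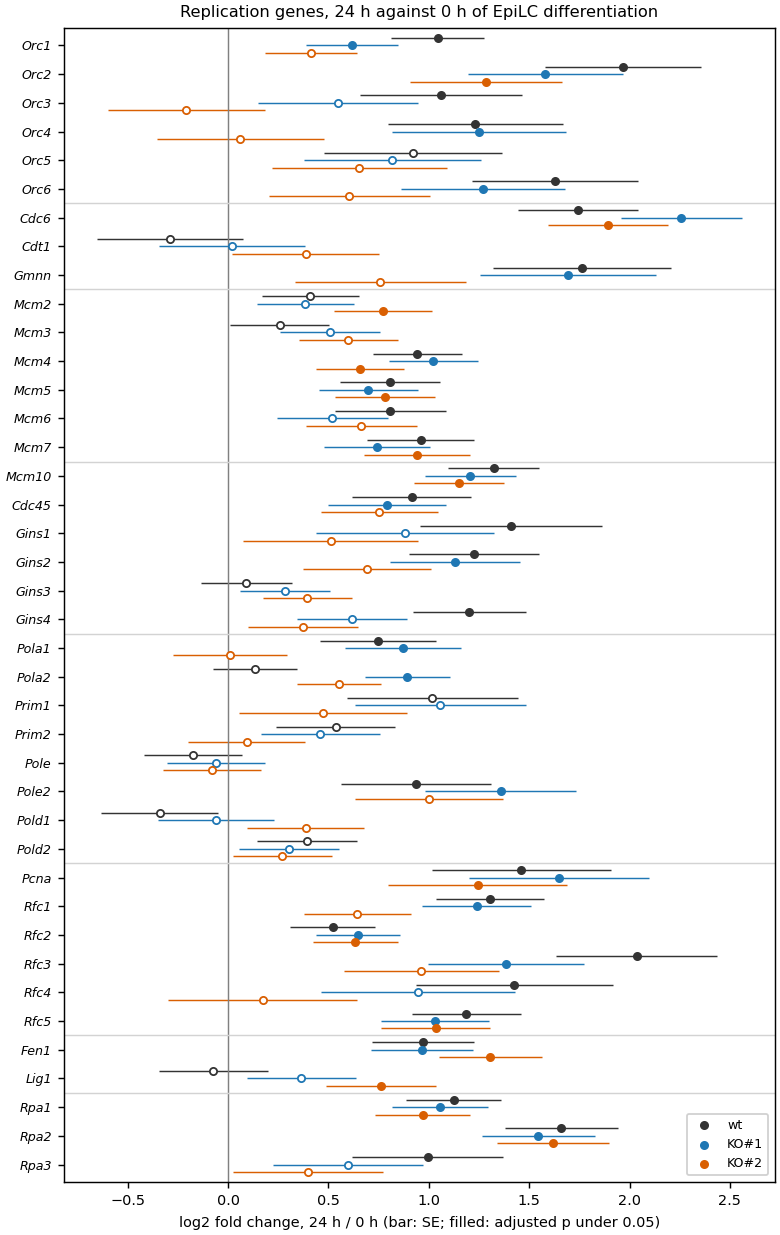
log2 fold change of each replication gene between 24 h and 0 h in wt, KO#1 and KO#2, with SE bars and filled points for genes with edgeR adjusted p under 0.05, grouped from origin recognition (top) to RPA (bottom). On this TMM scale all filled points lie to the right of 0, and with library sizes alone 1 of them in wt and 5 in KO#1 lie to the left. The 5 lowest wt values on the TMM scale are those of Pold1, Cdt1, Pole, Lig1 and Gins3.

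Among the genes of origin recognition and licensing, Cdc6, which loads the MCM ring, had the largest mean rise over the 3 lines. Its level was 25.6, 39.2 and 30.5 CPM in wt cells at 0 h and 79.3, 121 and 121 at 24 h, a log2 fold change of 1.74 ± 0.30 (SE, edgeR adjusted p = 0.00016). KO#1 went from 18.4, 24.2 and 36.4 to 97.7, 137 and 145 CPM (2.26 ± 0.30, adjusted p = 3.58e-05), and the libraries labelled KO#2 from 14.6, 18.7 and 21.1 to 63.5, 47.9 and 90.5 (1.89 ± 0.30, adjusted p = 0.000203). Within each line the groups did not overlap, and the call held in all fits tried, library sizes alone included. Orc2, an origin recognition subunit, rose from 22.3, 43 and 25.4 to 161, 121 and 75.2 CPM in wt cells (1.97 ± 0.39, adjusted p = 0.000545). In KO#1 it went from 22.9, 38.8 and 37.8 to 153, 92.4 and 52.1 (1.58 ± 0.38, adjusted p = 0.00378), and in KO#2 from 47.5, 65.5 and 60 to 104, 124 and 195 (1.29 ± 0.38, adjusted p = 0.0176), a call lost without KO#2 0 h replicate 1 (adjusted p = 0.0816) or KO#2 24 h replicate 3 (0.107).

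The other origin recognition genes rose in wt cells with log2 fold changes of 1.04 (Orc1), 1.06 (Orc3), 1.23 (Orc4) and 1.63 (Orc6), while Orc5 at 0.92 ± 0.44 did not pass. Of these, 3 also passed in KO#1 (Orc1, Orc4 and Orc6) and none in KO#2, where Orc3 was at -0.21 ± 0.39 and Orc4 at 0.06 ± 0.42. The wt calls of Orc3 (adjusted p = 0.0914 to 0.161) and Orc4 (0.0594 to 0.138) were each lost without wt 0 h replicate 1 or 3 or wt 24 h replicate 1 or 2. In KO#1 the Orc1 call held only without KO#1 24 h replicate 1 (0.0694 to 0.14 without each other library), and that of Orc4 was lost without KO#1 0 h replicate 1 or 2 or KO#1 24 h replicate 1 or 2 (0.0657 to 0.19). That of Orc6 was lost without KO#1 0 h replicate 1 or KO#1 24 h replicate 1 or 2 (0.0744 to 0.0969). Gmnn, which encodes geminin, the inhibitor of CDT1, rose by 1.76 ± 0.44 in wt and 1.70 ± 0.44 in KO#1 cells and was at 0.76 ± 0.43 in KO#2. Cdt1, the partner of CDC6 in loading, was called in no line. It stood at 215, 128 and 131 CPM in wt cells at 0 h and 98.7, 119 and 170 at 24 h (-0.29 ± 0.36, adjusted p = 0.521). In KO#1 Cdt1 was at 181, 208 and 76.7 and then 108, 146 and 217 (0.02 ± 0.36, adjusted p = 0.97). In KO#2 Cdt1 was at 58.5, 54.9 and 76.9 and then 116, 59.7 and 72.6 (0.39 ± 0.36, adjusted p = 0.469). The times overlapped in each line, and Cdt1 shares sequence on the same strand with the gene Gm20388, between which the counting could split reads.

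On the mean over all 18 libraries, Mcm5 (115 CPM per kb of exon) had the highest level of the 40 genes per length, followed by Pcna (105), Mcm3 (88), Mcm7 (68.6) and Mcm4 (60.2), while Gins3 (4.87) and Orc4 (3.03) had the lowest. This order is of the pooled mean and differed between groups. At 0 h Mcm3 lay above Mcm5 in wt cells (91.1 against 80.7) and KO#2 (51.5 against 48.8). At 24 h Pcna lay above Mcm5 in wt cells (166 against 141) and KO#2 (95.5 against 83.8). Only in KO#1 was Mcm5 first, at both times. Mcm5 was at 313, 309 and 345 CPM in wt cells at 0 h and 463, 570 and 660 at 24 h (log2 fold change 0.81 ± 0.25, adjusted p = 0.0119). In KO#1 Mcm5 was at 456, 449 and 614 and then 659, 812 and 997 (0.70 ± 0.25, adjusted p = 0.0314). In KO#2 Mcm5 was at 147, 211 and 225 and then 308, 297 and 399 (0.78 ± 0.25, adjusted p = 0.0268). In each line the lowest 24 h library was above the highest 0 h library, but the call was lost without wt 24 h replicate 3 (adjusted p = 0.0746), without each of KO#1 0 h replicates 1 and 2 and KO#1 24 h replicates 2 and 3 (0.081 to 0.136), and without KO#2 0 h replicate 1 (0.139) or KO#2 24 h replicate 3 (0.128). Mcm4 and Mcm7 rose in all 3 lines by 0.66 to 1.02, and Mcm6 in wt cells alone (0.81 ± 0.28). The KO#2 call of Mcm4 held only without KO#2 24 h replicate 2 (adjusted p = 0.0531 to 0.157 otherwise). That of Mcm7 was lost without KO#2 0 h replicate 1 or KO#2 24 h replicate 3 (0.0725 and 0.0819), and its KO#1 call without KO#1 0 h replicate 1 or 2 or KO#1 24 h replicate 2 or 3 (0.0831 to 0.148). The Mcm6 call was lost without wt 0 h replicate 1 or 3 or wt 24 h replicate 2 or 3 (0.0765 to 0.108). Mcm3 passed in no line, with 0.26, 0.51 and 0.60 in wt, KO#1 and KO#2, and Mcm2 passed only in KO#2 (0.77 ± 0.24, against 0.41 and 0.39), a call lost without KO#2 0 h replicate 1 or 2 or KO#2 24 h replicate 3 (adjusted p = 0.0743 to 0.131). The difference between the KO#2 and wt responses of Mcm2 was 0.36 ± 0.34 and did not pass.

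Of the genes that activate the helicase, Mcm10 was the one that rose in all 3 lines. It was at 94.1, 90.5 and 91.7 CPM in wt cells at 0 h and 194, 238 and 259 at 24 h (1.32 ± 0.23, adjusted p = 0.000162). In KO#1 Mcm10 was at 76.5, 88.5 and 90.9 and then 173, 201 and 216 (1.21 ± 0.23, adjusted p = 0.000585). In KO#2 Mcm10 was at 71.1, 81.9 and 107 and then 192, 145 and 240 (1.15 ± 0.23, adjusted p = 0.00123). Its levels at 24 h were above all levels at 0 h across lines. Cdc45, Gins1, Gins2 and Gins4, which encode parts of the active helicase, rose in wt cells by 0.91, 1.41, 1.23 and 1.202, with Cdc45 (0.79) and Gins2 (1.13) also called in KO#1 and none in KO#2. The KO#1 call of Cdc45 held only without KO#1 0 h replicate 3 (adjusted p = 0.0531 to 0.194 otherwise), and its wt call was lost without wt 0 h replicate 1 or wt 24 h replicate 2 (0.069 and 0.0732). The Gins1 call was lost without wt 0 h replicate 1 or 3 or wt 24 h replicate 1 (0.0685 to 0.0845). Gins3 did not pass in any line and had 0.09 ± 0.23 in wt cells. Gins2, described further below, was at 27.9, 51.1 and 37.1 CPM in wt cells at 0 h and 119, 62.4 and 91.6 at 24 h, and its KO#1 call was lost without KO#1 0 h replicate 1 (adjusted p = 0.0539) or KO#1 24 h replicate 1 (0.062).

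Of the 8 polymerase and primase genes, Pola1 and Pole2 rose in wt cells and Pola1, Pola2 and Pole2 in KO#1, with none called in KO#2. Pole, the catalytic subunit of the leading strand polymerase, was at 164, 150 and 149 CPM in wt cells at 0 h and 112, 141 and 158 at 24 h (-0.17 ± 0.24, adjusted p = 0.571). In KO#1 Pole was at 115, 140 and 89.4 and then 87.8, 109 and 134 (-0.06 ± 0.24, adjusted p = 0.868). In KO#2 Pole was at 122, 99.3 and 138 and then 140, 84.1 and 116 (-0.08 ± 0.24, adjusted p = 0.845). All 3 pairs of groups overlapped. With offsets for GC content and exon length, added after the data were seen, the Pole change turned to 0.58 in both wt (adjusted p = 0.0132) and KO#1 cells (adjusted p = 0.016). The wt call of Pole2 was lost without wt 0 h replicate 1 or 3 or wt 24 h replicate 1 or 2 (0.096 to 0.187), and its KO#1 call without replicate 1 of KO#1 at 0 h or at 24 h (0.0525 and 0.0606). Pold1 and Pold2, catalytic and accessory subunits of polymerase delta, had -0.34 ± 0.29 and 0.39 ± 0.25 in wt cells, and the primase subunits Prim1 and Prim2 had 1.02 ± 0.43 and 0.54 ± 0.30, none of which passed. Pola1, the catalytic subunit of polymerase alpha, had 0.75 ± 0.29 (adjusted p = 0.0374) in wt cells, a call that was lost without each wt library but wt 0 h replicate 2 (adjusted p = 0.0508 to 0.161), and 0.87 ± 0.29 in KO#1 (adjusted p = 0.0228), lost without KO#1 0 h replicate 1 or 3 or KO#1 24 h replicate 1 or 2 (0.0587 to 0.135).

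The sliding clamp and its loader all rose in wt cells. Pcna, the clamp, went from 76.4, 238 and 117 CPM to 525, 349 and 318 in wt cells (1.46 ± 0.45, adjusted p = 0.0115). In KO#1 Pcna went from 102, 99.4 and 266 to 679, 479 and 311 (1.65 ± 0.45, adjusted p = 0.00773). In KO#2 Pcna went from 69.4, 119 and 103 to 173, 197 and 318 (1.24 ± 0.44, adjusted p = 0.0463). Replicates spread widely within each group but did not overlap between times. The wt call was lost without wt 0 h replicate 1 (adjusted p = 0.0698), wt 0 h replicate 3 (0.0524) or wt 24 h replicate 1 (0.061), and the KO#2 call held only without KO#2 24 h replicate 1, with adjusted p of 0.0583 to 0.207 without each other library. Rfc3, a loader subunit, had the largest rise of any member in wt cells, from 7.22, 25.8 and 20.9 to 83.6, 82.2 and 62.1 CPM (2.03 ± 0.40, adjusted p = 0.000507). In KO#1 it went from 15.1, 17.5 and 39.9 to 71.5, 68.4 and 51.8 (1.38 ± 0.39, adjusted p = 0.00949; 0.0566 without KO#1 0 h replicate 1) and in KO#2 from 13.5, 21.5 and 18.2 to 28.6, 27.4 and 47.6 (0.96 ± 0.38, adjusted p = 0.0726). The test of the difference gave -1.07 ± 0.54 between the KO#2 and wt responses of Rfc3, which did not pass. Rfc2 and Rfc5 rose in all 3 lines (0.52 to 0.65 and 1.03 to 1.19), Rfc1 in wt and KO#1 (1.31 and 1.24) and Rfc4 in wt cells (1.43 ± 0.49). The wt call of Rfc2 was lost without any 1 of the 6 wt libraries (adjusted p = 0.0571 to 0.16). Its KO#1 call was lost without KO#1 0 h replicate 1 or 2 or KO#1 24 h replicate 3 (0.0733 to 0.104), and its KO#2 call without KO#2 0 h replicate 1 or 2 or KO#2 24 h replicate 3 (0.0676 to 0.174). The KO#2 call of Rfc5 was lost without KO#2 0 h replicate 1 or KO#2 24 h replicate 3 (0.0574 and 0.0604). That of Rfc4 in wt cells was lost without wt 0 h replicate 1 or 3 or wt 24 h replicate 1 or 2 (0.0593 to 0.107).

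Fen1, the nuclease that trims Okazaki fragments, rose by 0.97 ± 0.26 in wt, 0.97 ± 0.26 in KO#1 and 1.31 ± 0.26 in KO#2. Lig1, the ligase that seals them, was at 287, 164 and 174 CPM in wt cells at 0 h and 165, 200 and 229 at 24 h (-0.07 ± 0.27, adjusted p = 0.841). In KO#1 Lig1 was at 174, 213 and 142 and then 176, 229 and 277 (0.36 ± 0.27, adjusted p = 0.289). In KO#2 Lig1 was at 85.5, 71.6 and 101 and then 170, 110 and 158 (0.76 ± 0.27, adjusted p = 0.0461). The times overlapped in wt and KO#1 but not in KO#2, where the call held only without KO#2 24 h replicate 2 (0.0539 to 0.139 without each other library). All 3 RPA genes, which coat single-stranded DNA, rose in wt cells. Rpa2 went from 51.8, 79 and 75.9 to 206, 224 and 226 CPM in wt cells (1.66 ± 0.28, adjusted p = 0.000148). In KO#1 Rpa2 went from 46.9, 59.7 and 106 to 183, 212 and 229 (1.55 ± 0.28, adjusted p = 0.000449). In KO#2 Rpa2 went from 33.6, 45.3 and 44.6 to 119, 102 and 158 (1.62 ± 0.28, adjusted p = 0.000459), with no overlap in any line. Rpa1, the largest subunit, went from 105, 134 and 117 to 226, 274 and 276 CPM in wt cells (1.12 ± 0.24, adjusted p = 0.000949). In KO#1 Rpa1 went from 117, 122 and 184 to 257, 319 and 302 (1.06 ± 0.24, adjusted p = 0.00223). In KO#2 Rpa1 went from 89.5, 113 and 122 to 185, 184 and 267 (0.97 ± 0.24, adjusted p = 0.00583). Rpa3 passed in wt cells only (1.00 ± 0.38, adjusted p = 0.035), and lost that call without wt 0 h replicate 1 or 3 or wt 24 h replicate 1 or 2 (adjusted p = 0.0785 to 0.157). Of the 12 genes called in all 3 lines, 5 (Cdc6, Mcm10, Fen1, Rpa1 and Rpa2) kept all 3 calls in every fit except that with library sizes alone.

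**Figure D3:**
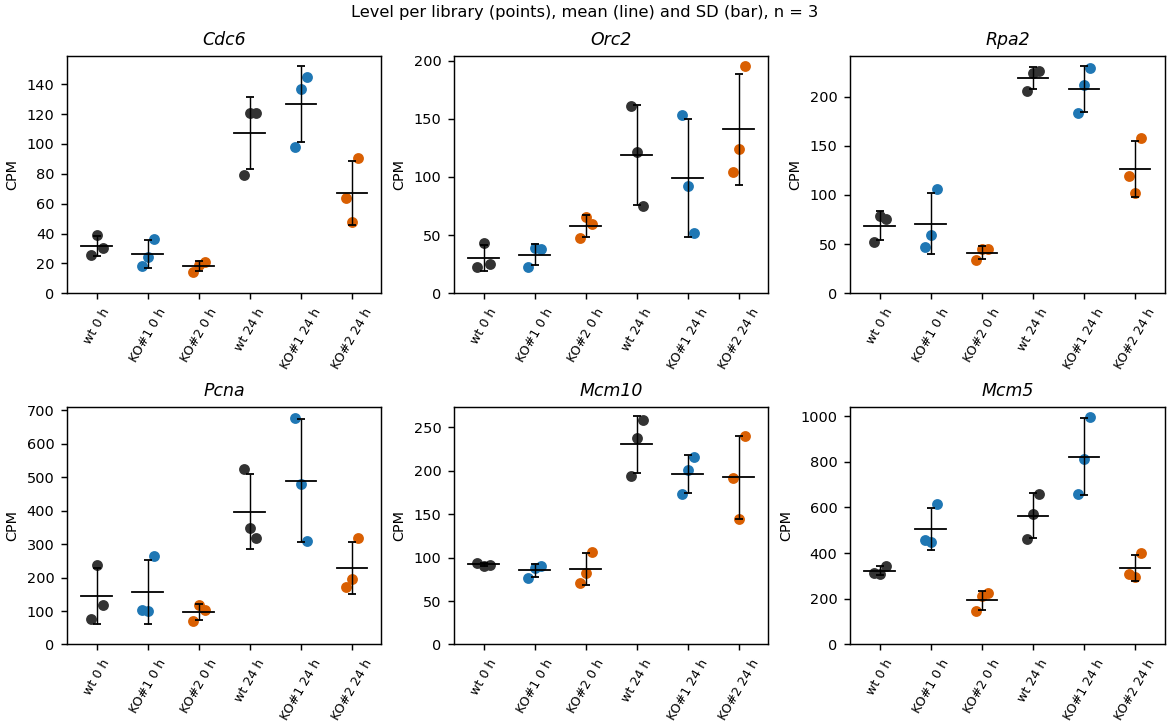
CPM per library of the 5 genes with the largest mean rise among those called in all 3 lines (Cdc6, Orc2, Rpa2, Pcna and Mcm10) and of Mcm5, with the mean (line) and SD (bar) of 3 libraries per group. The 24 h libraries lie above the 0 h libraries of the same line in every panel, and the KO#2 levels of Mcm5 lie below those of wt and KO#1 at both times on this TMM scale.

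Genes that work around the machinery were counted by list, to be read against the shares of all genes given above (26% higher and 24.7% lower in wt, 20.1% and 20.6% in KO#1, 12.7% and 13.3% in KO#2). Of 22 accessory and origin firing genes, 9 rose and 3 fell in wt cells (11 and 1 in KO#1, 4 and 0 in KO#2), with Pole3, a small subunit of polymerase epsilon, the largest rise (1.93 ± 0.33) and Ticrr, needed for origin firing, the largest fall (-2.79 ± 0.41). Ticrr also fell in KO#1 (-1.72 ± 0.39) and was not called in KO#2. Of 7 genes of nucleotide supply 6 rose in wt, 6 in KO#1 and 2 in KO#2. Of 6 chromatin assembly genes, 5, 5 and 4 rose, with the histone chaperone Asf1a (2.12 ± 0.34) first in wt cells. Of 10 regulators of the G1/S step 3 rose and 2 fell in wt cells, 4 rose in KO#1 and 5 in KO#2. Ccne1, cyclin E1, had the largest rise in wt (2.89 ± 0.30) and KO#2 (2.35 ± 0.29), Ccne2 the largest in KO#1 (2.79 ± 0.53), and E2f1 the largest fall in wt cells (-1.01 ± 0.26). Of 12 G2/M genes 8, 7 and 1 rose, with Ccnb1, cyclin B1, first in wt cells (1.97 ± 0.41), and of 12 fork checkpoint and repair genes 6 rose and 1 fell in wt cells, 6 and 2 in KO#1, and 0 and 1 in KO#2. Brca2 was the gene of that list with the largest fall in all 3 lines (-1.20 ± 0.25, -1.37 ± 0.25 and -1.01 ± 0.25) and Chek1, the checkpoint kinase, the largest rise in wt cells (1.28 ± 0.47).

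Whether the clones responded differently from wt cells was asked of the interaction of line and time. No member passed for KO#1 (background 0.253% of genes called higher and 0.138% lower) or for KO#2 (0.951% and 0.517%), and by DESeq2 the counts were also 0. With no filter on low counts 2 passed for KO#2, Orc3 (-1.27, adjusted p = 0.0398) and Rfc4 (-1.26, adjusted p = 0.0477). At an edgeR unadjusted p under 0.05 there were 1679 of all 16619 genes for KO#1 and 3920 for KO#2. Among the members there were 1 for KO#1 (Pola2, 0.76 ± 0.30, edgeR adjusted p = 0.352) and 3 for KO#2: Orc3 (-1.27 ± 0.56, adjusted p = 0.186), Gins4 (-0.83 ± 0.39, adjusted p = 0.208) and Lig1 (0.83 ± 0.38, adjusted p = 0.198). The SEs of these differences ran from 0.30 to 0.68. A gene called in wt cells and not in a clone is therefore not shown to respond differently there.

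The clones were then compared with wt cells at each time, with the wt libraries shared by both comparisons. In KO#1 cells 1 member was called at 0 h, Gins4, and none lower, where 3.99% of genes were called higher and 2.68% lower. Gins4 was at 35.4, 28.8 and 22 CPM in wt cells and 34.4, 59.7 and 74.2 in KO#1 (0.98 ± 0.28, edgeR adjusted p = 0.0422), with overlapping groups. The call was lost without wt 0 h replicate 2 (adjusted p = 0.103) or 3 (0.204) or KO#1 0 h replicate 2 (0.096) or 3 (0.194), which leaves 0 members called in each case. It was also lost with RLE scaling, the compared groups alone, protein-coding genes only and the replicate block, each with 0 members called, and with offsets for GC content and length, which called another member. At 24 h no member was called (background 6.25% higher and 3.61% lower), 1 was by DESeq2, and 2 had an edgeR unadjusted p under 0.05, Gins3 (0.67 ± 0.22, adjusted p = 0.0666) and Mcm5 (0.54 ± 0.25, adjusted p = 0.2). Over all 16619 tested genes, 3714 had an edgeR unadjusted p under 0.05 there. The median difference between KO#1 and wt over the 40 genes was 0.09 at 0 h and 0.03 at 24 h.

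In the libraries labelled KO#2 at 0 h, 3 members were higher and 13 lower than in wt cells, where 21.5% of all genes were called higher and 16.6% lower. The share of members called higher was thus under the background and that called lower above it, and with library sizes alone the 6 members called were all higher, as were 4976 of the 16619 genes tested, with the median of all genes at 0.54. Relative to the median of all genes the members' median was -0.22 on both scales, -0.41 with offsets for GC content and length, -0.40 with no filter on low counts and -0.09 with protein-coding genes only. Of the members called higher, Orc4 had the largest difference, with 4.92, 15.2 and 11.8 CPM in wt cells and 31, 31.5 and 28.4 in KO#2 (1.45 ± 0.44, adjusted p = 0.0155; 0.069 without wt 0 h replicate 1), followed by Orc3 (1.1997 ± 0.40) and Pola1, at 49.9, 82.5 and 55.3 against 117, 138 and 161 CPM (1.14 ± 0.29, adjusted p = 0.00601). Neither Orc4 nor Pola1 overlapped between the groups. Pold1 had the largest negative difference, with 236, 151 and 138 CPM in wt cells and 67.5, 54.4 and 82.5 in KO#2 (-1.36 ± 0.30, adjusted p = 0.00237). Cdt1 (-1.31 ± 0.37, adjusted p = 0.0113; 0.0532 without wt 0 h replicate 1) and Lig1 (-1.28 ± 0.28, adjusted p = 0.00224) were next, with no overlap on the levels given above for each. Cdc6, Mcm2, Mcm3, Mcm5, Pola2, Pold2, Rfc2, Fen1, Rpa2 and Rpa3 were the other members called lower, with differences of -0.73 to -1.15. Of the 16 calls, 7 held without each library in turn (Mcm2, Pola1, Pola2, Pold1, Pold2, Rfc2 and Lig1). The Orc3 call was lost without wt 0 h replicate 1 or 3 or KO#2 0 h replicate 2 or 3 (adjusted p = 0.052 to 0.118). The Cdc6 call was lost without wt 0 h replicate 2 or 3 or KO#2 0 h replicate 1 or 2 (0.0698 to 0.139), and that of Mcm5 without wt 0 h replicate 1 or 3 or KO#2 0 h replicate 1 or 2 (0.0506 to 0.128). Mcm3 lost it without wt 0 h replicate 1 or KO#2 0 h replicate 1 or 2 (0.0508 to 0.0676), and Fen1 without replicate 1 of wt or KO#2 at 0 h (0.0561 and 0.0615). The Rpa2 call held only without wt 0 h replicate 1 (0.0642 to 0.144 otherwise). Without KO#2 0 h replicate 1, 10 members were called, 3 higher and 7 lower.

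At 24 h 10 members were lower and none higher in the libraries labelled KO#2 than in wt cells (background 16% and 21.3%) with TMM scaling, whereas 14 were higher and none lower with library sizes alone, which called 9676 of the 16619 genes higher and moved the median of all genes to 1.24. Relative to the median of all genes the members' median was -0.72 on the first scale and -0.71 on the second, and as a percent of protein-coding counts the members' sum was 0.766% ± 0.0565 (SD, n = 3) in wt and 0.748% ± 0.0976 in KO#2, which overlapped. Rpa3, the smallest RPA subunit, had the largest difference, with 59.8, 46.2 and 34.7 CPM in wt cells and 9.35, 15.2 and 19.7 in KO#2 (-1.67 ± 0.38, adjusted p = 0.00248). At 0 h it was at 16.7, 34.5 and 18.6 CPM in wt and 7.44, 14.5 and 11.7 in KO#2 (-1.07 ± 0.38, adjusted p = 0.0345), a call lost without wt 0 h replicate 2 (0.207), KO#2 0 h replicate 1 (0.134) or 3 (0.0704). Gins2 was at 119, 62.4 and 91.6 CPM in wt cells at 24 h and 31.4, 27.9 and 49.3 in KO#2 (-1.33 ± 0.32, adjusted p = 0.00387), and neither gene overlapped between the groups at 24 h. Rfc3 (-1.14 ± 0.38), Pold2 (-1.13 ± 0.25), Gins4 (-0.88 ± 0.28), Rfc2 (-0.79 ± 0.21), Rpa2 (-0.79 ± 0.27), Mcm5 (-0.75 ± 0.25), Pola2 (-0.73 ± 0.21) and Mcm2 (-0.71 ± 0.24) were the other 8. The count fell to 5 without wt 24 h replicate 2, 6 without wt 24 h replicate 3, 5 without KO#2 24 h replicate 1 and 4 without KO#2 24 h replicate 2, and with no filter on low counts it was 6. Of the 10 calls, 4 (Gins2, Pold2, Rfc2 and Rpa3) held without each library in turn. Mcm2, Mcm5, Pola2, Pold2, Rfc2, Rpa2 and Rpa3 were the members called lower at both times.

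**Figure D4:**
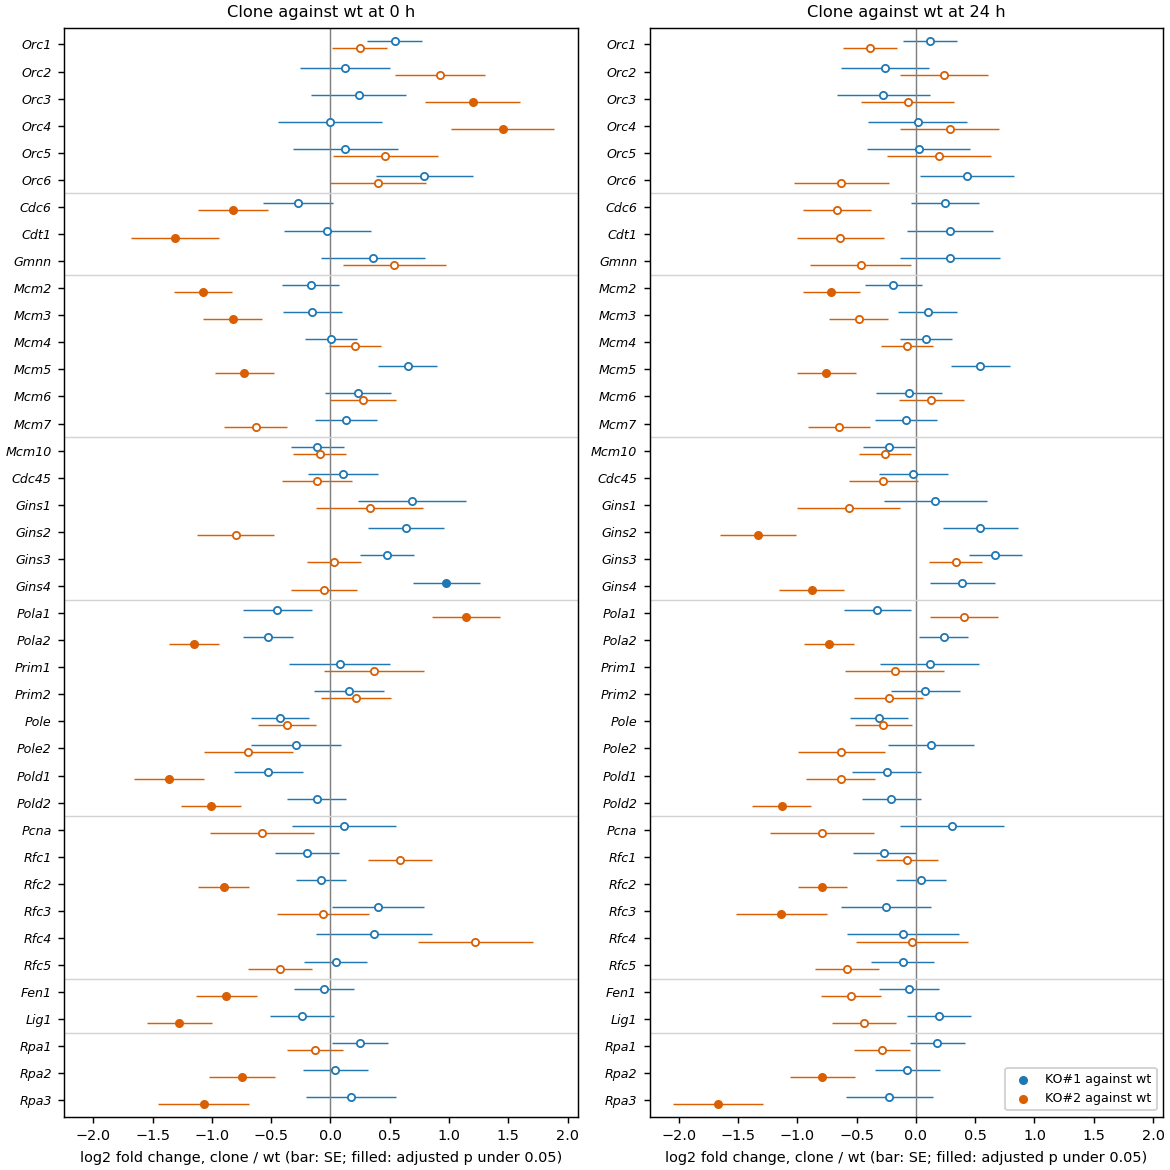
log2 difference of each replication gene between KO#1 (blue) or KO#2 (orange) and wt cells at 0 h (left) and 24 h (right) on the TMM scale, with SE bars and filled points for edgeR adjusted p under 0.05. KO#1 has 1 filled point over both panels (Gins4 at 0 h), KO#2 has 3 to the right and 13 to the left of 0 at 0 h and 10 to the left at 24 h, where library sizes alone put 14 to the right.

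The KO#2 differences moved with base composition. Across the 40 members the difference between KO#2 and wt cells at 0 h had a Spearman correlation of -0.70 with the GC content of the longest transcript, and -0.45 at 24 h, where over the 16517 tested genes with a GC value it was -0.50 and -0.26. These points share the same libraries and genes are not independent replicates, so the values are descriptions. The 3 members called higher at 0 h had 36.8% (Orc4), 38.6% (Orc3) and 41.5% GC (Pola1), and Pold1, Pold2 and Cdt1, all called lower, had the highest GC of the machinery at 61%, 58.7% and 57.8%. Rpa3 went against this, with the lowest GC of all members (34.2%) and the lowest KO#2 level relative to wt at 24 h. With counts corrected for GC content and exon length, an alternative chosen after the data were seen, 8 members were called lower and none higher at 0 h, of which 6 were among the 16 called before (Cdc6, Mcm2, Pola2, Rfc2, Lig1 and Rpa3), and Orc3, Orc4 and Pola1 were not called. At 24 h the same correction called 12 lower and 1 higher, and 9 of the 10 remained (all but Rpa2). The lengths of the members bore little relation to the difference at 0 h (0.03) and some at 24 h (0.33). The protein-coding share also differed between the libraries labelled KO#2 and wt at both times (above). The fibroblast sums overlapped between them at 0 h and did not at 24 h. At 24 h 6 of 6 primitive endoderm markers were higher in KO#2 than in wt, with sums of 14.2 to 28.2 against 1.36 to 1.99 CPM, and Pdgfra differed by 5.31 ± 0.60. Of 10 naive markers 6 were higher and none lower, with sums of 313 to 719 against 300 to 327 CPM, and 2 of 8 primed markers were lower. Of 5 general pluripotency markers 1 was higher (Sox2, 0.83 ± 0.27, adjusted p = 0.0214) and 1 lower (Pou5f1, -0.76 ± 0.25, adjusted p = 0.0225). Markers also differed between KO#1 and wt at 24 h. There Nanog, Tfcp2l1, Tbx3, Zfp42, Prdm14, Gata6 and Pdgfra were called higher, and Dnmt3a, Pou3f1, Sox3 and Lef1 lower. The other naive, primed and primitive endoderm markers were not called in KO#1, whose naive sums were 485 to 604 CPM. The part of the shares, sums and markers in the KO#2 differences was not tested. In bulk RNA, fewer cells of a type and less RNA per cell cannot be told apart.

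**Figure D5:**
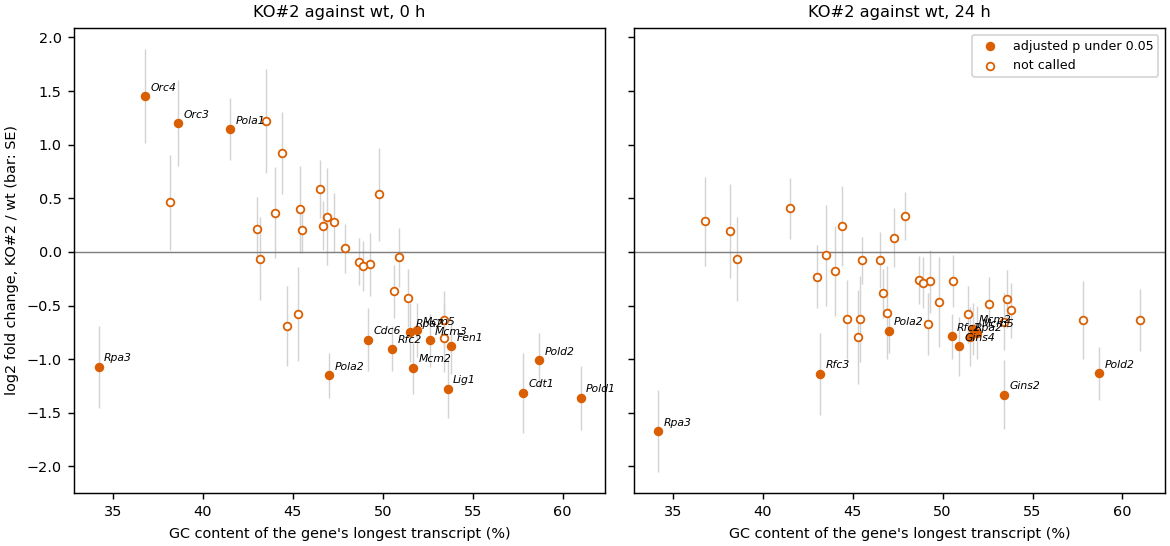
log2 difference between the libraries labelled KO#2 and wt cells for each replication gene (TMM scale, SE bars) against the GC content of its longest transcript at 0 h (left) and 24 h (right), filled where edgeR adjusted p is under 0.05. At 0 h the points fall from Orc4, Orc3 and Pola1 at low GC to Cdt1, Pold2 and Pold1 at high GC, with Rpa3 (34.2% GC) apart at the lower left of both panels.

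The lists around the machinery were counted in the same way for KO#2 against wt, where 21.5% of all genes were called higher and 16.6% lower at 0 h and 21.3% and 16% at 24 h. These calls are on the TMM scale, and library sizes alone moved the median of all genes to 1.24 at 24 h. Over all tested genes the difference had a Spearman correlation with GC content of -0.50 at 0 h and -0.26 at 24 h. No counts of these lists with the GC and length offsets are given here. At 0 h 6 of 12 G2/M genes were higher and none lower, as were 6 of 12 fork checkpoint and repair genes, of which the kinase Atr had the largest difference (1.43 ± 0.32), while 7 of 10 G1/S regulators were lower and none higher, E2f2 by -1.73 ± 0.44. At 24 h 4 G2/M genes and 1 G1/S regulator (Ccne1, -0.81 ± 0.28) were lower, 3 of 7 genes of nucleotide supply were lower, Dut, the dUTPase, by -1.998 ± 0.28, and 2 of 12 fork genes were higher (Brca2, 1.10 ± 0.25, and Atr, 0.98 ± 0.32). Of the accessory and firing genes 3 were higher and 3 lower at 0 h and 3 and 2 at 24 h, and of the chromatin assembly genes 2 were lower at 0 h and 1 at 24 h (Chaf1b, -0.94 ± 0.24). In KO#1 at 24 h, where 6.25% of all genes were called higher and 3.61% lower, the calls over these 6 lists were 4: Rnaseh2a (0.79 ± 0.21), Tk1 (0.84 ± 0.25), Asf1b (1.01 ± 0.26) and E2f2 (1.57 ± 0.42). At 0 h (3.99% and 2.68% of all genes) the 1 call was Atad5, at -0.82 ± 0.20.

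The clones were also compared with each other. At 0 h 3 members were higher and 14 lower in KO#2 than in KO#1 (background 15.1% and 11.3%). The count of 17 fell to 7 with offsets for GC content and length (1 higher and 6 lower) and to 7 with library sizes alone (5 higher and 2 lower), and across the 40 members the difference had a Spearman correlation of -0.70 with GC content. At 24 h none were higher and 10 lower (background 19.3% and 16.1%), with 14 higher and none lower at 24 h under library sizes alone. On that scale the median of all genes moved to 0.33 at 0 h and 1.21 at 24 h. Relative to the median of all genes at 24 h, the members' median was -0.69 there and -0.66 with TMM. The largest positive difference at 0 h was that of Pola1, with 31.8, 65.8 and 41 CPM in KO#1 against 117, 138 and 161 in KO#2 (1.59 ± 0.29). Gins2 had the largest negative difference at each time. It was at 48.4, 67.4 and 66.3 CPM in KO#1 and 14.9, 25.9 and 26.5 in KO#2 at 0 h (-1.44 ± 0.33), and at 174, 92.4 and 132 against 31.4, 27.9 and 49.3 at 24 h (-1.88 ± 0.33), with no overlap at either time. Mcm5 differed by -1.38 ± 0.25 at 0 h and -1.30 ± 0.25 at 24 h. On this scale the KO#2 levels of Mcm5 lay below those of wt and KO#1 at both times. At 24 h KO#1 overlapped wt as a group but was higher in each same-numbered pair. The pairs were 659 against 463, 812 against 570 and 997 against 660 CPM, and a paired difference was not tested. Same-numbered wt and KO#1 libraries deviated together at 24 h. A fit with the replicate block called 0 members between them, but its effect is common to all 6 groups, so it does not test this pairing. The 0 h count was 4 without KO#2 0 h replicate 1, 10 without KO#1 0 h replicate 3 and 11 without KO#2 0 h replicate 2. No member was called in both clones against wt at the same time.

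Several members share bases with other annotated genes. Of the 40, Orc2, Orc4, Orc6, Mcm7, Cdc45, Gins2, Rfc2, Rfc4, Rfc5, Fen1 and Lig1 overlap a protein-coding gene on the opposite strand, Cdt1 and Pole2 one on the same strand, and Mcm7 holds Mir106b, Mir93 and Mir25 on its own strand. The library kit keeps strand, but the use of strand in the counting is not given in the sources used here, so levels of these genes may include reads of their neighbours.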

How the data were processed

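RNA-seq of 18 libraries (6 groups, n = 3) was deposited as 1 table of raw counts per gene. Per the study's methods, the authors trimmed stranded, paired reads of total RNA, removed ribosomal sequences and aligned them with STAR to Ensembl GRCm38; these deposited counts are not normalized, and the annotation release and use of strand in the counting are not given in the sources used here. The labels name DESeq2, used here as an alternative. Of 45706 genes, 16619 passed edgeR's filter (minimum count 10). The main fit was edgeR 4.0.16 (R 4.3.3), TMM scaling, 6 group means, quasi-likelihood test, Benjamini-Hochberg adjustment over all tested genes, threshold 0.05. SEs are the log2 fold change divided by the root of F. Exon lengths, GC content and overlaps came from GENCODE M21. Promoters came from RefSeq (GRCm38.p6), with no entry for 8 members. Floors cover counting error only, while the SEs include the spread between libraries. The replicates are biological per the labels, and p-values measure the spread between these libraries.

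The members and lists were chosen with earlier results of these data known. Libraries are printed for members called in all 3 lines (the 5 largest mean changes in each direction), called in both clones against wt at 1 time, called in an interaction, with the largest rise or fall among called members of a comparison, called against the median in wt cells (up to 3) or highest in their complex by mean CPM over all 18 libraries. One gene of the surrounding lists is not reported by name here. Same-numbered libraries deviated together for wt and KO#1 at 24 h (r = 0.223 to 0.587 for all 3 pairs, each library closest to its own number) and in no other pair of groups, so the numbers pair these 2 groups by the data alone. A fit with the replicate block called 0 members there, as did the main fit. Alternatives were DESeq2 1.42.0, RLE scaling, library sizes alone, no filter, only the groups compared, the replicate block, protein-coding genes only, each library left out and, added after the data were seen, offsets for GC content and exon length.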

Additional observations from a re-analysis of the deposited data

Results flagged for a closer look

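The 27 results below are members called in a test of whether the difference from wt cells differed between the 2 knockout clones, read from the direct comparison of KO#2 with KO#1 (edgeR, adjusted p under 0.05), in which the wt libraries cancel. At 0 h the log2 difference was positive for Pola1 (1.59), Orc4 (1.46) and Rfc1 (0.79). It was negative for Gins2 (-1.44), Mcm5 (-1.38), Cdt1 (-1.29), Rpa3 (-1.24), Lig1 (-1.04), Gins4 (-1.03), Mcm2 (-0.91), Pold2 (-0.89), Pold1 (-0.83), Fen1 (-0.82), Rfc2 (-0.82), Rpa2 (-0.79), Mcm7 (-0.76) and Pola2 (-0.62). At 24 h it was negative for Gins2 (-1.88), Rpa3 (-1.45), Mcm5 (-1.30), Gins4 (-1.27), Orc6 (-1.06), Pola2 (-0.97), Pold2 (-0.92), Cdc6 (-0.91), Rfc2 (-0.83) and Rpa2 (-0.72). Of the 17 calls at 0 h, 4 held without each library in turn (Mcm5, Gins2, Pola1 and Lig1), and of the 10 at 24 h 7 did (all but Orc6, Cdc6 and Rpa2). At 0 h, without KO#1 0 h replicate 3, Mcm7 was at -0.41 (adjusted p = 0.242) and Rpa2 at -0.37 (adjusted p = 0.299). With library sizes alone the 14 members called at 24 h were all positive, where the median of all genes moved to 1.21. Groups of 3 libraries were not tested for outlying libraries.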

How the results depend on the processing

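No named member's change over 24 h turned sign under DESeq2, RLE scaling, no filter, the compared groups alone, protein-coding genes only or the replicate block, but calls were lost. Under these and the GC and length offsets together, 23 of 28 calls held in wt, 16 of 23 in KO#1 and 8 of 14 in KO#2. The compared groups alone called 16 in KO#1, no filter kept 9 of the 14 in KO#2, and DESeq2 called 21 there. With library sizes alone the members called numbered 5 in wt cells, 1 in KO#1 and 5 in KO#2 over 24 h, 6 for KO#2 against wt at 0 h and 7 for KO#2 against KO#1 at 0 h. The reversals given here are of members called on either scale, and members called on neither turned sign as well. The members' median became 0.0148 in KO#1 over 24 h, and 0.53 for KO#2 against wt and 0.52 against KO#1 at 24 h. Library sizes alone reversed Rfc2 in wt cells (-0.10) and, in KO#1, Orc1 (-0.17), Mcm5 (-0.070), Mcm7 (-0.0352), Cdc45 (-0.0348) and Rfc2 (-0.12). For KO#2 against wt at 24 h it reversed Orc3 (1.03), Mcm2 (0.31), Mcm4 (0.96), Mcm5 (0.28), Mcm10 (0.77), Cdc45 (0.79), Gins4 (0.20), Pola2 (0.305), Prim2 (0.83), Rfc1 (0.97), Rfc2 (0.255), Rfc4 (1.04), Rpa1 (0.76) and Rpa2 (0.25). For KO#2 against KO#1 at 24 h it reversed Orc6 (0.11), Cdc6 (0.14), Mcm4 (0.90), Mcm10 (1.02), Cdc45 (0.84), Gins3 (0.76), Pola2 (0.0747), Prim2 (0.81), Pold2 (0.11), Rfc2 (0.21) and Rpa2 (0.34). This scaling shifts all genes, as given above. With offsets for GC content and length Pole turned positive over 24 h in wt cells (0.58, and 0.58 with the replicate block) and KO#1 (0.58 and 0.58). The same offsets gave 8 calls for KO#2 against wt at 0 h with and without the block, 7 for KO#2 against KO#1 at 0 h (9 with the block), 1 for KO#1 against wt at 24 h with and without it, and with the block 16 for KO#2 against wt at 24 h and 2 for KO#1 against wt at 0 h. The single KO#1 call at 0 h became 0 with RLE scaling, the compared groups alone, protein-coding genes only or the replicate block. DESeq2 called 1 for KO#1 against wt at 24 h. KO#2 against wt at 24 h gave 6 with no filter and 16 with the compared groups alone, and the KO#2 response 2 with no filter. The cause of these shifts was not tested. Leaving out 1 library gave 17 to 29 calls in wt cells, 12 to 23 in KO#1 and 5 to 14 in KO#2 over 24 h. Against wt it gave 0 to 1 (KO#1, 0 h), 10 to 16 (KO#2, 0 h), 0 (KO#1, 24 h) and 4 to 13 (KO#2, 24 h), 4 to 12 and 7 to 13 for KO#2 against KO#1 at 0 and 24 h, and 0 for both responses. Beyond wt and KO#1 at 24 h the replicate numbers do not pair libraries. Depth was lowest in wt 0 h replicate 1, whose floor of 0.984 CPM was under the level of every member.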
